A study of Mus musculus with 8 samples.

Results

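Neurofilaments and microtubule-associated proteins build the lengthwise skeleton of axons and dendrites. The genes described here are the 10 of 23845 in the deposited gene table that carry the names of 4 neurofilament subunits (Nefl, Nefm, Nefh and Ina) and 6 microtubule-associated proteins (Map1a, Map1b, Map2, Mapt, Dcx and Map6). The rule for membership is the gene name and uses no measured value, though the set was proposed with earlier results of these data known. All 10 had an entry, and all 10 passed the filter (average over the 8 libraries not under 1 TPM) that left 13681 tested genes.

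The RNA came from primary hippocampal neurons of mouse embryos at embryonic day 19, grown in culture. Every culture received a lentivirus between 13 and 15 days in vitro and was harvested between 17 and 19 days in vitro, and the virus expressed an shRNA that was either scrambled or directed at CNOT7, a deadenylase that shortens poly(A) tails. Polyadenylated RNA was caught on poly(U) agarose and either eluted whole at 75 °C (total RNA) or first washed at 50 °C, a step that per the labels takes off tails shorter than 50 nucleotides, and then eluted at 75 °C (long tails). The 4 groups of 2 libraries each were scrambled total, knockdown total, scrambled long tails and knockdown long tails. The labels name no mouse strain, no hairpin sequence and no pooling of embryos, and they leave unsaid whether the pair of libraries in a group stems from separate cultures. The p-values therefore measure the spread between these libraries only.

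Neurofilaments are intermediate filaments. The light chain (Nefl), the medium and heavy chains (Nefm and Nefh), whose long tails are heavily phosphorylated in axons, and alpha-internexin (Ina) assemble together, and their amount is tied to axon calibre. Microtubule-associated proteins bind along microtubules and stabilise or bundle them: tau (Mapt) lies mostly in axons and Map2 mostly in dendrites, Map1b and doublecortin (Dcx) mark growing and young neurons, and Map1a and Map6 are proteins of mature neurites and of cold-stable microtubules. Doublecortin and Map1b typically decline as neurons mature, while Map1a and the heavy neurofilament chain come up late.

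The mRNAs differ in length and in how their annotated ends look, which matters here because one fraction was chosen by poly(A) tail. In GENCODE release M21 on GRCm38, the annotated transcript taken for each gene was 3.24 to 3.99 kb long for the 4 neurofilament genes, 4.92 to 6.26 kb for Map6, Mapt and Map2, 9.07 kb for Dcx and 11.8 kb for Map1a and Map1b. The median over tested genes was 3117 bases. Within the last 50 bases, where the hexamer that directs cleavage and polyadenylation usually lies, 7 of these 10 transcripts carried the hexamer AATAAA, Ina and Map1a carried ATTAAA, and Map2 carried neither. Of 15920 protein-coding transcripts with a 3′ UTR of at least 300 bases, 62.6% had AATAAA in that window, 18.1% had ATTAAA and 76.5% had either. The ends below, at most 30 bases of the transcript strand written as DNA and with the hexamer in capitals, are those of the 2 neurofilament mRNAs that differed least between fractions and of the 3 microtubule-associated protein mRNAs longer than 8 kb.
Nefl, chr14:68089053-68089082, plus strand: cctgtgtgccatAATAAAatattgaaaaaa
Nefm, chr14:68119283-68119304, minus strand: gcatcgtgggtaAATAAAggga
Map1a, chr2:121310794-121310823, plus strand: atatatatatatATTAAAtctttgctcata
Map1b, chr13:99421473-99421502, minus strand: actcagttccacAATAAAatacaaagtggc
Dcx, chrX:143855844-143855873, minus strand: tcattttccaaaAATAAAatttgatttcaa
The cytoplasmic polyadenylation element was searched in the last 300 bases on the transcript strand as TTTTAT or TTTTAAT, matches that may share bases with the hexamers or with each other. It occurred once each in Nefl, Map1b and Map2 (as TTTTAT) and in none of the other 7, against 36.3% of the 15920 transcripts. The annotated 3′ UTR of the Map2 transcript used is 184 bases long, so its window reaches into coding sequence. These matches describe the letters only.

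The genes lie apart on GRCm38 except for one pair. Nefl (chromosome 14, 68083863 to 68089095, plus strand, 4 exons) lies inside the annotated span of Nefm (chromosome 14, 68082590 to 68124846, minus strand), and 1108 exonic bases are shared between the strands. The Nefm transcript taken here has its 3′ end at 68119283, outside Nefl, so the shared bases belong to other annotated Nefm exons. Ina (chromosome 19, 47014698 to 47025327) shares 456 exonic bases with Nt5c2, Map1a (chromosome 2, 121289600 to 121310832) shares 272 with Ppip5k1, and Map2 (chromosome 1, 66175273 to 66442583) shares 124 with the antisense gene Gm10558. The sources used here do not say whether counting used strand, so reads from these stretches may have gone to either gene. Map1b lies on chromosome 13 (99421446 to 99516540), Nefh on chromosome 11 (4938754 to 4948064) together with Mapt (104231390 to 104332090), Map6 on chromosome 7 (99267447 to 99337137) and Dcx on chromosome X (143855842 to 143933311).

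Values are TPM, which is a share of the library per transcript length, rounded by the authors to whole numbers. The deposited columns summed to between 999689 and 999809, and read depth is unknown. Cnot7 itself was at 42 and 36 TPM in scrambled total and at 12 and 16 TPM in knockdown total, and at 28 and 31 against 9 and 11 TPM in long tails. Even its difference of −1.42 in total RNA did not pass limma's adjusted threshold (SE 0.187, unadjusted p = 0.00037, adjusted p = 0.153). The knockdown long-tail libraries were the least alike. The share of the ribosomal precursor Rn45s was highest in library 1 of this pair (18.559%) and lowest in library 2 (2.898%). In the other groups it was 6.070% to 17.224%. The correlation across genes within the pair (r = 0.966) was below the 0.982 to 0.985 of the other groups. Library 2 stood apart in moving most with transcript length against the mean of the 8 libraries (Spearman rho −0.72, against −0.12 for library 1). All 14 neuronal markers were present, with a sum of 6821 to 8901 TPM per library. Astrocyte markers summed to 3259 to 6019 TPM. Oligodendrocyte lineage markers summed to between 1637 and 2044 TPM in the 4 scrambled libraries and between 1097 and 1375 TPM in the 4 knockdown libraries, with 12 of 12 markers lower on average in both fractions. Of all tested genes, 60.2% were lower on average in total RNA and 61.2% in long tails. Microglial markers summed to 8 to 24 TPM, with Cx3cr1, Aif1, Tmem119 and Itgam at 0 in every library. These are bulk samples, so fewer cells of a type and less RNA per cell cannot be told apart, and the part of glial content in the values below was not tested.

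In scrambled total RNA the 10 mRNAs spanned from 16.5 ± 0.707 TPM for Dcx to 329.5 ± 19.1 TPM for Nefl (mean ± SD, n = 2 libraries here and below). In order, Nefl was followed by Map1b (296.5 ± 6.36), Map2 (271.5 ± 38.9), Mapt (200 ± 8.49), Map1a (188.5 ± 10.6), Ina (123 ± 19.8), Nefm (94 ± 19.8), Map6 (78.5 ± 3.54) and Nefh (52.5 ± 3.54 TPM). Libraries of neighbours in this order overlapped for Map1b and Map2, for Mapt and Map1a and for Nefm and Map6. The other neighbours did not overlap. Nefl was above 96.7% of tested genes in this group and Dcx above 41.1%. In knockdown total RNA Map1b stood first (469.5 ± 2.12 TPM) and Nefl next (401 ± 18.4 TPM), with no overlap between them.

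**Figure D1:**
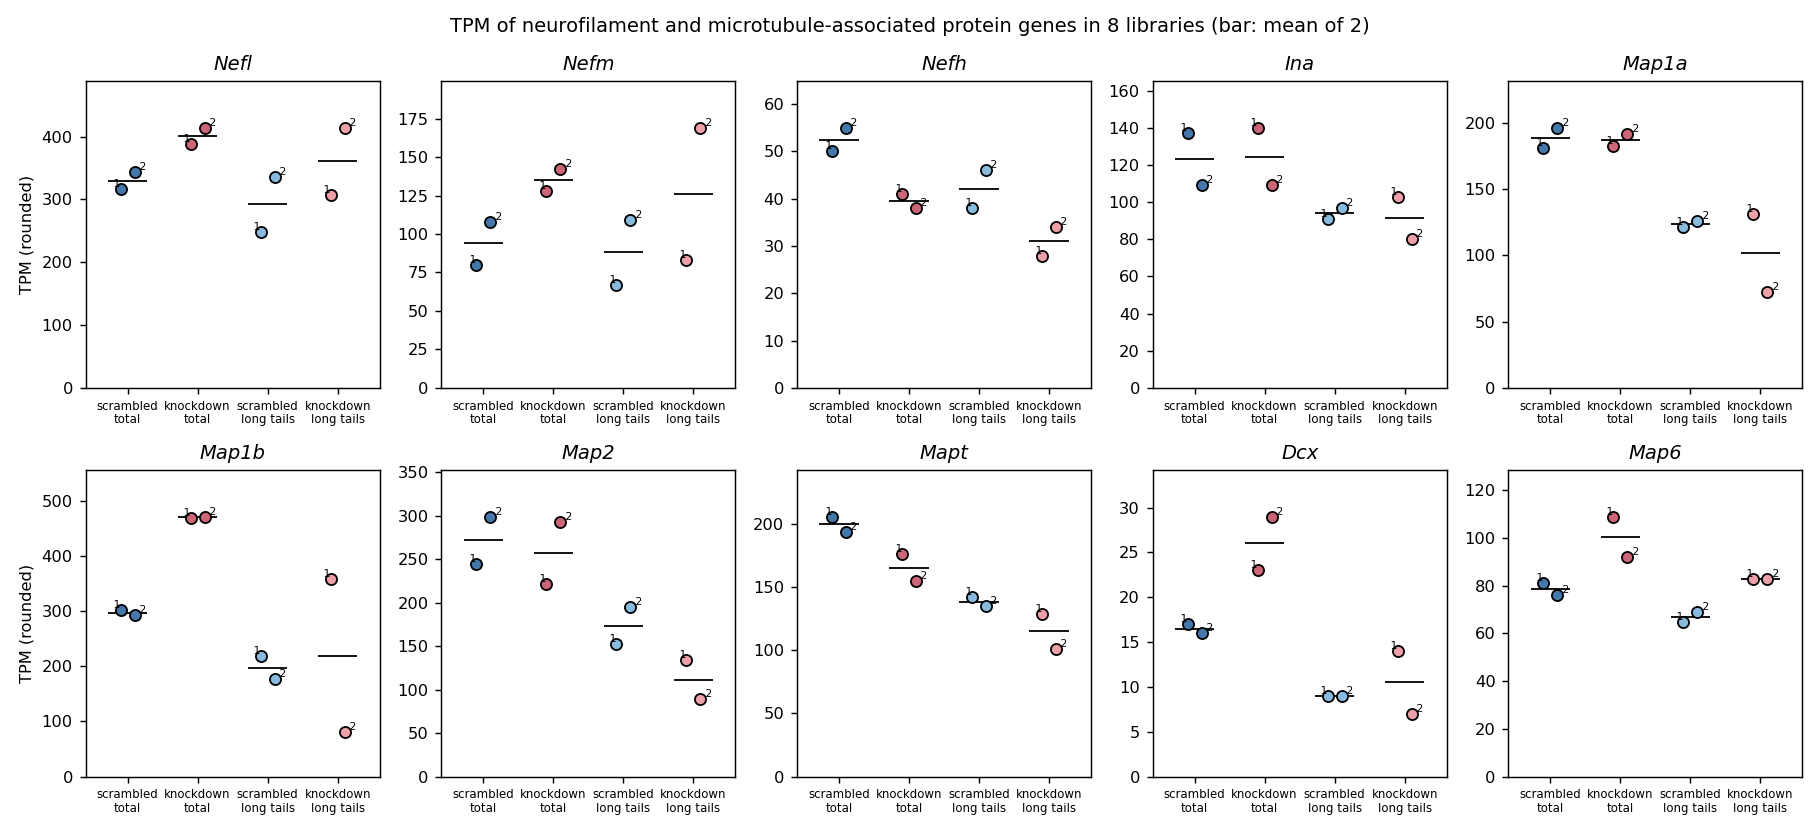
TPM (y axis, from 0) of each of the 10 genes in the 8 libraries; points are libraries with their replicate number and bars are means of 2. Map1b in total RNA lies at 301 and 292 in scrambled and 468 and 471 in knockdown, while its 2 knockdown long-tail libraries lie at 358 and 80.

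In total RNA of knockdown neurons, the light and medium neurofilament chains, Map1b, Dcx and Map6 took a larger share than in scrambled neurons in both libraries, and Nefh and Mapt took a smaller share. None of these differences passed the limma test over all genes, which called 0 of 10 members of this set and 0% of the 13681 genes, 868 of which had an unadjusted p under 0.05. On average 6 of 10 genes were above scrambled, against 32.6% of all genes, and 4 were below, against 60.2%. At an unadjusted p under 0.05, 1 of the 10 was higher (Map6), against 2.05% of all genes, and 1 was lower (Nefh), against 4.3%. Libraries did not overlap between knockdown and scrambled for 5 of 10 genes in the upward direction, where the share of all tested genes was 8.68%, and for 2 of 10 in the downward direction, where it was 20.1%. The median difference was 0.15 on the log2(TPM + 1) scale for the 10 genes and −0.07 for all tested genes.

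Among the neurofilament genes, Nefl was at 316 and 343 TPM in scrambled total and at 388 and 414 TPM in knockdown total. Both knockdown libraries were above both scrambled ones, and the difference was 0.28 on the log2 scale (SE 0.209, adjusted p = 0.949). Nefm was at 80 and 108 TPM in scrambled and 128 and 142 TPM in knockdown, a difference of 0.53 (SE 0.4, adjusted p = 0.951) that was 0.32 without scrambled library 1 and 0.75 without scrambled library 2. The Nefm libraries of scrambled neurons lay farther apart than those of knockdown neurons, and again there was no overlap. Nefh, the heavy chain, went the other way, with 50 and 55 TPM in scrambled and 41 and 38 TPM in knockdown. Its difference was −0.40 (SE 0.153, unadjusted p = 0.0419, adjusted p = 0.771). Ina was at 137 and 109 TPM in scrambled and at 140 and 109 TPM in knockdown, with a difference of 0.02 and 95% confidence limits of −0.48 and 0.51.

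Because the 4 chains co-assemble and their transcripts are of similar length, their proportions were also set side by side. Nefh made up 8.58% and 8.94% of the summed neurofilament TPM in scrambled total libraries and 5.88% and 5.41% in knockdown total libraries. In long tails it made up 8.56% and 7.82% in scrambled and 5.37% and 4.88% in knockdown. All 4 scrambled values were above all 4 knockdown values, but the labels do not say whether the fractions share cultures, so these may not be independent values. Put as a ratio, there were 15.8 and 16 Nefh per 100 Nefl in scrambled total, 10.6 and 9.18 in knockdown total, 15.3 and 13.7 in scrambled long tails and 9.12 and 8.21 in knockdown long tails. In each fraction the exact permutation test gave p = 0.33, two-sided, the smallest that 2 against 2 libraries allow. Nefm made up 13.7% and 17.6% of the sum in scrambled total and 18.4% and 20.2% in knockdown total, without overlap, but in long tails 15.1% and 18.5% against 15.9% and 24.2%, with overlap. The share of Ina overlapped between knockdown and scrambled in both fractions.

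**Figure D2:**
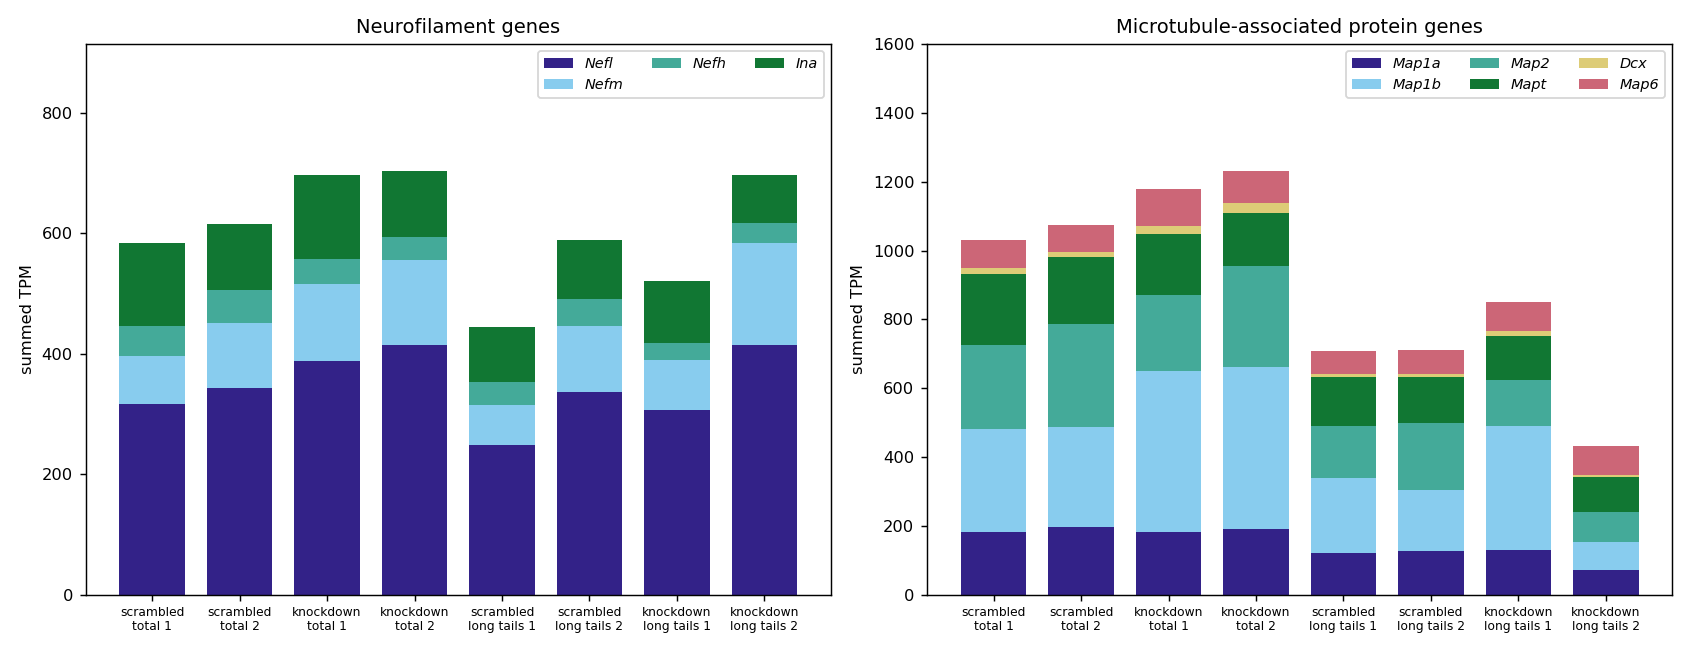
Stacked TPM (y axis, from 0) of the 4 neurofilament genes and of the 6 microtubule-associated protein genes in each of the 8 libraries. The microtubule-associated protein sum is lowest in knockdown long-tail library 2 (432 TPM, against 707 to 1231 in the other 7), where Map1b shrinks most, while the neurofilament sum of that library (697 TPM) is close to those of knockdown total RNA (697 and 703 TPM).

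Summed, the neurofilament genes were at 583 and 615 TPM in scrambled total and at 697 and 703 TPM in knockdown total (exact permutation p = 0.33, the smallest possible). In long tails the sums were 444 and 588 in scrambled and 521 and 697 TPM in knockdown, with overlap. The microtubule-associated protein sum was 1030 and 1073 TPM in scrambled total and 1179 and 1231 TPM in knockdown total, again without overlap. Its mean difference was 154 TPM, and Map1b alone went from a mean of 296.5 to 469.5 TPM. Of the other genes in this sum, Dcx and Map6 were higher on average, and Map1a, Map2 and Mapt were lower. The rise of the sum is therefore not one of the whole family. In long tails this sum was 707 and 711 TPM in scrambled and 849 and 432 TPM in knockdown, with overlap and a mean difference of −68.5 TPM.

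Map1b had the largest difference of the 10 in total RNA over all libraries, but without scrambled total library 2 Nefm (0.75) was ahead of it (0.64), and without knockdown total library 1 Dcx (0.78) was ahead of it (0.67). This microtubule-associated protein of growing axons was at 301 and 292 TPM in scrambled and at 468 and 471 TPM in knockdown, 1.58-fold higher on the log2(TPM + 1) scale. The libraries of each group lay close together, and the groups far apart. The limma difference was 0.66 with an SE of 0.653 (adjusted p = 0.986), and that SE draws on the shared spread of all 8 libraries, including the 358 and 80 TPM of the knockdown long-tail pair. With only the 4 total libraries in the model the unadjusted p was 0.00159 and the adjusted p 0.176. Without knockdown long-tail library 2 they were 0.0049 and 0.296, and without library 1 of that pair 0.00479 and 0.299. Over all alternatives the adjusted p of Map1b ranged from 0.176 to 1. Its relative Map1a, the mature-neuron form, was at 181 and 196 TPM in scrambled and 182 and 191 TPM in knockdown, with a difference of −0.01 and limits of −0.69 and 0.66, and this sign turned with quantile normalization (0.03). There were 166 and 149 Map1b per 100 Map1a in scrambled total and 257 and 247 in knockdown total. In long tails the ratios overlapped, with 180 and 140 in scrambled and 273 and 111 in knockdown.

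Dcx, doublecortin, was at 17 and 16 TPM in scrambled and at 23 and 29 TPM in knockdown total RNA. Both knockdown values were higher, with a difference of 0.62 (SE 0.306, adjusted p = 0.882), though at this level rounding to whole TPM is a visible part of each value. Map6 was at 81 and 76 TPM in scrambled and 109 and 92 TPM in knockdown, a difference of 0.35 (SE 0.116, unadjusted p = 0.026, adjusted p = 0.678). Mapt, tau, was at 206 and 194 TPM in scrambled and 176 and 155 TPM in knockdown, a difference of −0.27 (SE 0.148, adjusted p = 0.924). Map2, the dendritic protein, was at 244 and 299 against 221 and 293 TPM, with overlapping libraries and a difference of −0.09.

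**Figure D3:**
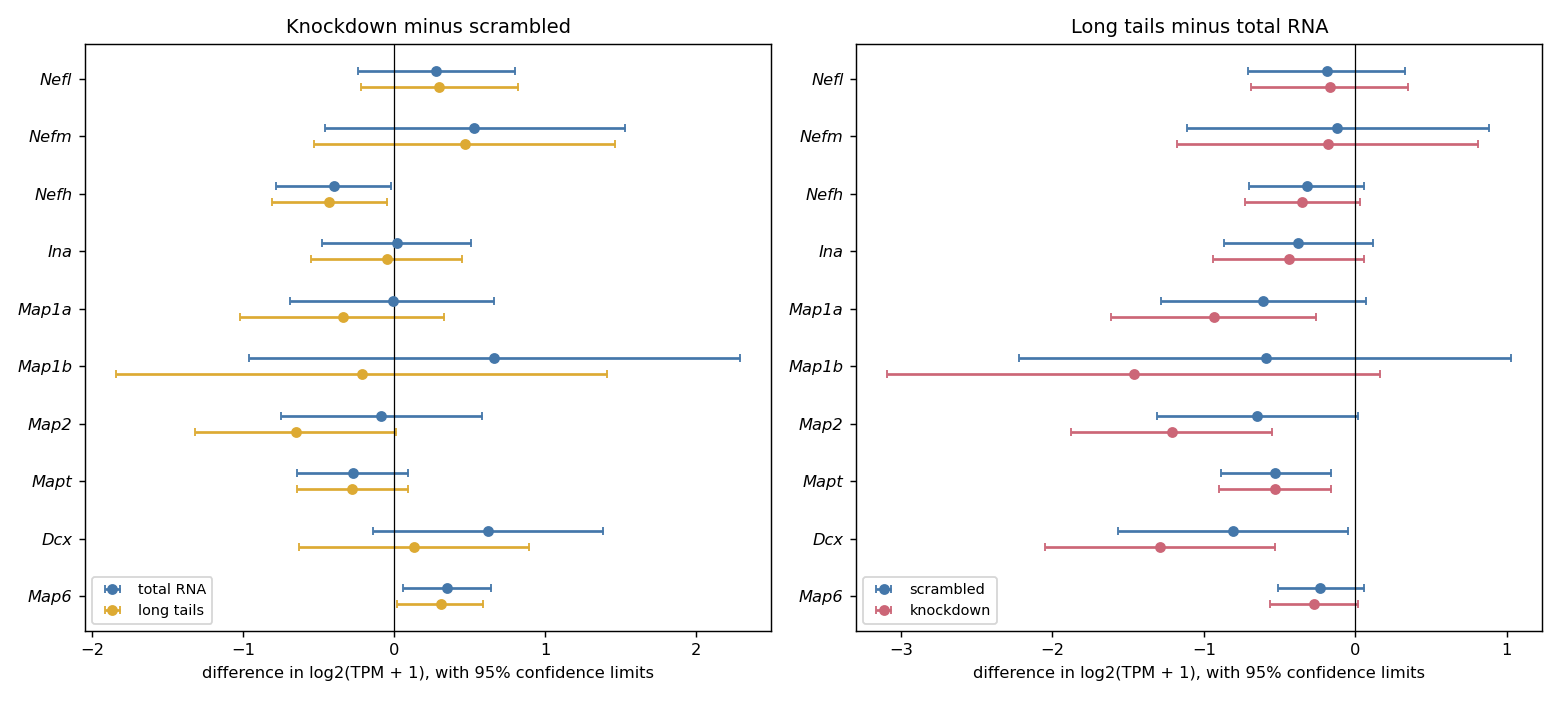
Differences in log2(TPM + 1) from the limma model (x axis) with 95% confidence limits, for knockdown minus scrambled (left) and long tails minus total RNA (right). The limits of Map1b are the widest on the left (−0.96 to 2.29 in total RNA), and on the right all 20 points lie below 0.

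In long-tailed RNA, averaged over both knockdown libraries, the knockdown differences of the neurofilament genes had nearly the same size as in total RNA, as did those of Mapt and Map6. The values of Map1a, Map1b, Map2 and Dcx were lower than in total RNA. These averages hide a split between the knockdown libraries. Without library 2 the differences were −0.04 for Nefm, 0.09 for Nefl and 0.86 for Map1b. Without library 1 they were 0.97, 0.52 and −1.29. The limma test called 0 of 10 genes and 0% of all genes, 1193 of which had an unadjusted p under 0.05. On average 4 of 10 were higher, against 32% of all genes, and 6 were lower, against 61.2%. At an unadjusted p under 0.05, Map6 was higher, against 2.25% of all genes, and Nefh was lower, against 6.47%. Without overlap between libraries, 1 gene was higher in knockdown (Map6, against 8.91% of all genes) and 3 were lower (Nefh, Map2 and Mapt, against 17.1%). The medians were −0.13 for the 10 genes and −0.10 for all tested genes. This comparison also moved with transcript length: over all genes its median was 0.00 under 2 kb, −0.06 for 2 to 4 kb, −0.24 for 4 to 8 kb and −0.41 over 8 kb (Spearman rho −0.40 across genes). With the trend with length taken out, a step chosen after the data were seen, the median of the 10 genes was 0.20, and Ina (0.03), Map1a (0.13) and Map1b (0.26) were above 0.

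Nefh was at 38 and 46 TPM in scrambled long tails and at 28 and 34 TPM in knockdown long tails (difference −0.43, SE 0.153, adjusted p = 0.55). Map6 was at 65 and 69 against 83 and 83 TPM (0.31, SE 0.116, adjusted p = 0.556). Both had the direction seen in total RNA, and the labels do not say whether the fractions were taken from the same cultures. Mapt was at 142 and 135 against 129 and 101 TPM (−0.28, adjusted p = 0.631). Map2 was at 152 and 195 against 134 and 89 TPM, a difference of −0.65 (SE 0.267, unadjusted p = 0.053, adjusted p = 0.576). Without knockdown library 2 the Map2 difference was −0.36 and without library 1 −0.94, and with the length trend removed it was −0.35. The Mapt difference was −0.10 and −0.45 without these libraries, and −0.04 with the length trend removed.

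For several genes the 2 knockdown long-tail libraries went opposite ways. Map1b was at 218 and 177 TPM in scrambled long tails and at 358 and 80 TPM in knockdown, so that library 1 was above and library 2 below both scrambled values. Without library 2 the Map1b difference was 0.86 (unadjusted p = 0.00386, adjusted p = 0.368), and without library 1 it was −1.29 (adjusted p = 0.0577). Each of these fits leaves 1 knockdown long-tail library, whose spread is taken from the other groups. Dcx was at 9 and 9 TPM in scrambled long tails and at 14 and 7 in knockdown, and its difference went from 0.13 to 0.58 without library 2 and to −0.32 without library 1. Map1a was at 121 and 126 against 131 and 72 TPM, with −0.34 over all libraries and 0.08 without library 2. Nefl (248 and 336 against 307 and 414 TPM) and Nefm (67 and 109 against 83 and 169 TPM) were higher in library 2 than in library 1, and without library 2 the Nefm difference of 0.47 became −0.04.

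The gap between these 2 libraries moved with transcript length over the whole table. Library 2 minus library 1 of knockdown long tails had a median of 0.36 for 3481 genes with transcripts under 2 kb, 0.10 for 5436 genes of 2 to 4 kb, −0.31 for 3902 genes of 4 to 8 kb and −0.85 for 758 genes over 8 kb. Across genes the Spearman rho with length was −0.61, genes not being independent replicates. TPM is a share, so the unlike Rn45s shares (18.559% in library 1 and 2.898% in library 2) also enter every gap. Their part was not tested. The same gap was 1.02 for Nefm, 0.43 for Nefl and 0.27 for Nefh, all above the 0.10 of their class of 2 to 4 kb. It was −0.85 for Map1a, −0.91 for Dcx and −2.15 for Map1b, the value farthest below 0 of the 10. The Map1a and Map1b transcripts are of nearly equal length (11825 and 11808 bases). Ina, at 3.24 kb in the same class as the other neurofilament genes, had −0.36, below the class median. The other 3 groups had rho values between −0.02 and 0.37 for their own library 2 minus library 1.

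**Figure D4:**
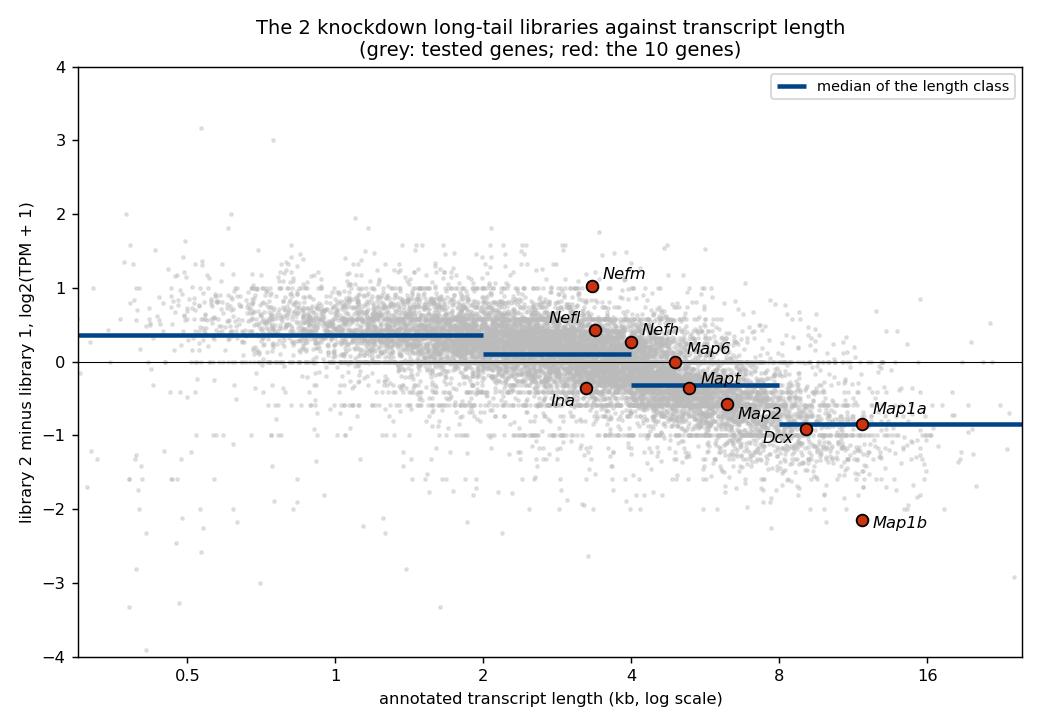
Annotated transcript length (x axis, kb, log scale) against library 2 minus library 1 of knockdown long tails in log2(TPM + 1) (y axis); grey points are tested genes, blue lines are medians of 4 length classes and red points are the 10 genes, and 32 of 13577 genes fall outside the axes. Map1a lies at the median of genes over 8 kb (−0.85), and Map1b lies below it at −2.15.

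Long tails were also compared with total RNA within each kind of neuron, which asks how an mRNA's share changes when short-tailed molecules are washed off. The share in long tails was lower on average for all 10 genes in scrambled neurons and for all 10 in knockdown neurons as deposited, and when the trend with transcript length was removed 3 and 6 of these signs turned. A difference below 0 was also the rule over the table, with 74.3% of tested genes in scrambled and 68.7% in knockdown neurons, against 20.7% and 26.7% above 0. Libraries did not overlap, in the lower direction, for 8 of 10 genes in each kind of neuron (all but Nefl and Nefm), against 39.6% and 40% of all genes. That share moved with length. It was 35.1% and 33.2% for genes of 2 to 4 kb, the class of the 4 neurofilament genes, 68.8% and 74.3% for 4 to 8 kb, the class of Map6, Mapt and Map2, and 80.7% and 79.9% over 8 kb, the class of Dcx, Map1a and Map1b. In the higher direction it was 0 of 10 in each, against 4.69% and 4.04%. The limma test called 0 of 10 genes and 0% of all genes in either comparison, with 1800 and 3562 genes at an unadjusted p under 0.05. At an unadjusted p under 0.05 there were 2 of 10 lower in scrambled neurons (Mapt and Dcx, against 12.9%) and 4 of 10 in knockdown neurons (Map1a, Map2, Mapt and Dcx, against 25.1%), while 0 were higher, against 0.263% and 0.921%.

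Nefm, Nefl and Map6 differed least. In scrambled neurons the long-minus-total difference was −0.19 for Nefl, −0.12 for Nefm, −0.32 for Nefh and −0.38 for Ina, with a family median of −0.25 against −0.22 for all genes. The microtubule-associated protein median was −0.60. With the trend with transcript length removed, the medians were 0.03 for the neurofilament genes and −0.09 for the microtubule-associated protein genes. Dcx went from 17 and 16 TPM in total to 9 and 9 TPM in long tails, a difference of −0.81 (SE 0.306, adjusted p = 0.377). Map2 went from 244 and 299 TPM to 152 and 195 TPM (−0.65, SE 0.267, adjusted p = 0.378), and Map1a from 181 and 196 TPM to 121 and 126 TPM (−0.61, adjusted p = 0.385). Map1b had −0.59, Mapt −0.53 (SE 0.148, unadjusted p = 0.0133, adjusted p = 0.377) and Map6 −0.23.

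In knockdown neurons Nefl, Nefm and Map6 again differed least, and the values of Map1b, Dcx, Map2 and Map1a were farther below 0 than in scrambled neurons. Map1b went from 468 and 471 TPM in total to 358 and 80 TPM in long tails, a difference of −1.46 (SE 0.653, adjusted p = 0.226). Dcx had −1.29 (SE 0.306, adjusted p = 0.14), Map2 −1.21 (SE 0.267, adjusted p = 0.14) and Map1a −0.93 (SE 0.272, adjusted p = 0.142). The neurofilament differences were −0.17 for Nefl, −0.18 for Nefm, −0.35 for Nefh and −0.44 for Ina. Without knockdown long-tail library 2, Map1b was at −0.39, Dcx at −0.84, Map2 at −0.92 and Map1a at −0.51. With library 1 left out in its place, limma called 5 of the 10 (Map1a, Map1b, Map2, Mapt and Dcx) among 2125 genes called over the table, a fit in which the lone library is assumed to vary like the other groups.

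Transcript length moved with this comparison as well. In scrambled neurons the median long-minus-total difference was 0.06 for genes under 2 kb, −0.21 for 2 to 4 kb, −0.41 for 4 to 8 kb and −0.55 over 8 kb (Spearman rho −0.72 across 13577 genes), and in knockdown neurons 0.15, −0.18, −0.55 and −0.90 (rho −0.75). Set against these, Map1a (−0.61 and −0.93) lay near its length class in both kinds of neuron. Of genes over 8 kb, 97.9% were below 0 in scrambled and 98.2% in knockdown neurons. When the trend with length was taken out of each library, a step chosen after the data were seen, the scrambled differences of the 10 genes ran from −0.29 (Dcx) to 0.15 (Map6), with a median of −0.05. In knockdown neurons they ran from −0.55 (Map2) to 0.24 (Map6), with a median of 0.02, and Map1b was at −0.47 and Dcx at −0.43. The length class and each length-removed value of Map2 rest on an annotated transcript of 6258 bases. That transcript has a 3′ UTR of 184 bases and neither hexamer, so the expressed mRNA may be longer. The effect of another Map2 length was not tested. A difference in tail length that goes with transcript length cannot be told apart from length itself in these files.

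**Figure D5:**
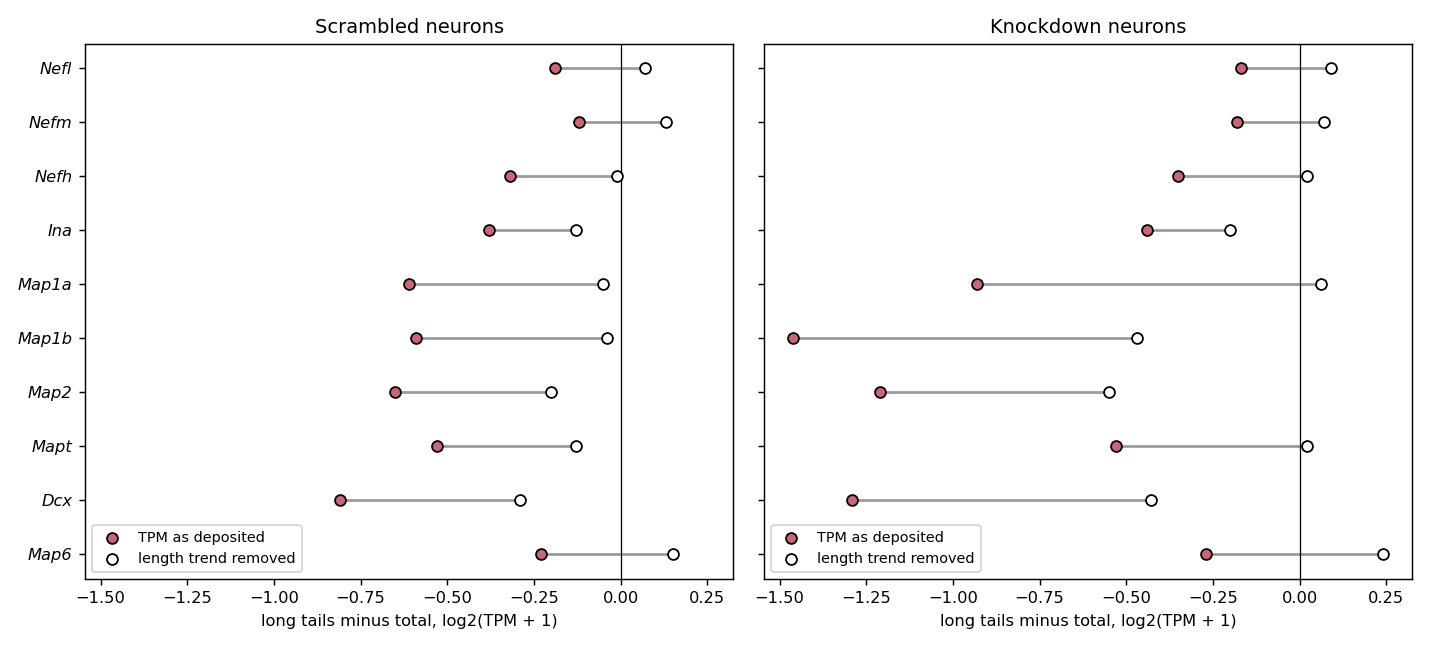
Long-minus-total differences in log2(TPM + 1) (x axis) of the 10 genes, as deposited (filled) and after the trend with transcript length was taken out of each library (open). In scrambled neurons the open points lie between −0.29 and 0.15, and in knockdown neurons Map2, Map1b and Dcx stay farthest below 0 (−0.55, −0.47 and −0.43). The open point of Map2 depends on the annotated transcript taken for it (6258 bases).

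Whether the knockdown difference itself depended on the fraction was tested as an interaction, that is, the long-tail value less the total-RNA value. The values were −0.87 for Map1b (limits −3.17 and 1.42), −0.57 for Map2 (limits −1.50 and 0.37), −0.49 for Dcx (limits −1.56 and 0.59) and −0.33 for Map1a (limits −1.28 and 0.63). For the other 6 genes they were between −0.07 and 0.02. On average 1 of 10 was above 0 (Nefl), against 42.8% of all genes, and 9 were below, against 53.5%. The interaction moved with transcript length over all genes, from a median of 0.08 under 2 kb to −0.37 over 8 kb (Spearman rho −0.44). With the length trend removed 5 of the 10 were below 0, Map1a turned to 0.12, and Map1b was at −0.43, Map2 at −0.35 and Dcx at −0.13. Quantile normalization turned Nefl to −0.12 and Nefh to 0.01. Limma called 0 of 10 and 0% of all genes (120 at an unadjusted p under 0.05), and none of the 10 had an unadjusted p under 0.05, against 0.482% of genes downward and 0.395% upward. Without knockdown long-tail library 2 the interaction of Map1b was 0.20, that of Map1a 0.10, that of Map2 −0.27 and that of Dcx −0.03. The intervals do not exclude sizeable differences in either direction for Map1b.

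The rest of the cytoskeletal machinery was looked at through 5 lists. By limma 0 of their tested genes passed the threshold in any of the 5 comparisons, and the counts below are at an unadjusted p under 0.05, where 2.05% of all genes were higher and 4.3% lower in total RNA and 2.25% higher and 6.47% lower in long tails. Of 9 tested other intermediate filament genes, 0 reached it in either fraction after knockdown (median −0.05 in total RNA). Among these 9, vimentin (Vim), the intermediate filament of glia and immature cells, was at 2847 and 3302 against 2258 and 2410 TPM in total RNA. These libraries did not overlap, as for 20.1% of all genes in the lower direction, and the limma difference was −0.39 (SE 0.271, adjusted p = 0.927). In long tails Vim overlapped, at 2398 and 3409 against 1947 and 2798 TPM. Astrocyte markers summed to 6019 and 4742 against 5903 and 3854 TPM in the total RNA libraries, with overlap. On average 9 of 10 of these markers were lower in total RNA, against 60.2% of all tested genes, and 8 of 10 in long tails, against 61.2%. Their part in the Vim values was not tested. Of 24 other microtubule-associated proteins and stathmins, 0 were higher and 1 was lower in total RNA (median 0.03), and 0 and 2 in long tails (Map1lc3b and Map10). Map1lc3b, an autophagosome protein first known as a light chain of MAP1, was at 382 and 416 TPM in scrambled and 209 and 189 TPM in knockdown total RNA. For total RNA, the authors' deposited table lists it as lower, at −0.78 on the log2 scale with an adjusted p of 0.00835.

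Of 24 genes for microtubule end-binding and polymerase proteins, 3 were higher (Mapre3, Slain2 and Tacc2) and 1 lower (Clip4) in total RNA, with a median of 0.14, and 1 was higher (Mapre3) and 2 lower (Clasp1 and Clip4) in long tails, with a median of −0.09. Mapre3, the neuronal end-binding protein EB3, was at 194 and 153 TPM in scrambled total, 299 and 214 in knockdown total, 179 and 157 in scrambled long tails and 298 and 315 TPM in knockdown long tails. For long tails, the authors' deposited table lists Mapre3 as higher, at 0.80 on the log2 scale with an adjusted p of 0.00882. Of 27 severing and tubulin-modifying enzymes, 1 was higher (Ttll11) and 1 lower (Sirt2) in total RNA, and 1 higher (Ttll11) and 2 lower (Sirt2 and Spast) in long tails. Sirt2, a deacetylase abundant in oligodendrocytes, was at 468 and 444 against 353 and 300 TPM in total RNA. Oligodendrocyte lineage markers summed to 2044 and 1863 against 1287 and 1259 TPM there, and their part in the Sirt2 values was not tested. Of 28 kinases, phosphatases and turnover factors, 2 were higher (Ppp2r2b and Ppp3ca) and 2 lower (Cdk5r1 and Ppp2cb) in total RNA, and 1 higher (Ppp2r2b) and 2 lower (Cdk5r1 and Dyrk1a) in long tails. Cdk5r1, the p35 activator of the kinase Cdk5 that phosphorylates neurofilaments and tau, was at 128 and 113 TPM in scrambled total and 88 and 96 TPM in knockdown total (−0.38, SE 0.136, adjusted p = 0.717), and at 94 and 94 against 71 and 58 TPM in long tails (−0.54, adjusted p = 0.453). Of the 10 neurofilament and microtubule-associated protein genes, 0 appear in either of the authors' deposited tables, which list 104 genes for total RNA and 97 for long tails at an adjusted p under 0.05. The gene table holds 23845 genes, so lists this short would seldom include any given 10, and the absence says little about them.

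Across the 8 libraries, which share groups and normalization, Nefl and Nefm tracked each other most closely of all pairs of the 10 (Pearson r = 0.957 of log2(TPM + 1)). Annotated exons of these 2 genes overlap on opposite strands, though not those of the Nefm transcript taken here. The part of that overlap in the coefficient was not tested. Map1a tracked Map2 (0.947) and Mapt (0.908), and Map1b tracked Dcx (0.902) and Map1a (0.886). The coefficient of Nefh with Nefl was −0.007. Among 6801 other genes averaging 20 TPM or more, the closest in pattern were Add2 for Map1a (0.999), Mtor for the mean of the 6 microtubule-associated proteins (0.996), Scap for Mapt (0.995), Nav3 for Map1b (0.994), Dnajc11 for Nefh (0.993), Tsnax for Nefl (0.990), Bsn for Dcx (0.990), Gak for Ina (0.989), Ppp2r5c for Map6 (0.985) and Ufm1 for Nefm (0.982). Actr3 was the closest to the mean of the neurofilament genes (0.980). These coefficients describe 8 libraries of 4 groups, and the highest of 6801 is high by selection. Without knockdown long-tail library 2 the coefficient of Add2 with Map1a was 0.997 and that of Nav3 with Map1b was 0.993.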

How the data were processed

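The submitters' processing notes name CASAVA, TopHat2 and RSEM, both DESeq and DESeq2, and mouse build mm10, without versions or what each one did. Libraries were made with a qRNA-Seq kit, per the labels. The deposited gene table holds TPM, a score of relative abundance that the authors rounded to whole numbers. The authors' 2 deposited result tables hold p-values, adjusted p-values and fold changes in log2, as named per the file headers. Their log2 values ran against the TPM difference (knockdown less scrambled) for all 104 and all 97 entries and were turned.

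From the deposited TPM, log2(TPM + 1) was fitted with limma 3.58.1 (R 4.3.3; 4 group means over all 8 libraries, eBayes with trend) for genes averaging 1 TPM or more. The 5 contrasts were tested two-sided with Benjamini-Hochberg adjustment over all 13681 genes at 0.05. The code was tested on simulated data. Sums and shares were compared with an exact permutation test. Lengths and transcript ends came from GENCODE M21 (GRCm38), longest complete basic protein-coding transcript with a CCDS tag where there is one, for 99.2% of tested genes. TPM keeps no depth, so no counting error can be given. Alternatives were pseudocounts of 0.1 and 5, other filters, quantile normalization, rescaling without Rn45s, no trend, compared groups only, the replicate number as a block, each library left out and, both added after the data were seen, crossed numbers in the block and the length trend removed (lowess, span 0.3).

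The 10 genes and the lists were chosen with earlier results of these data known. Named genes are the 10, up to 3 per list with the smallest p in each knockdown comparison (averaging 5 TPM or more), the closest in pattern, and Cnot7. Genes of a list with an unadjusted p under 0.05 are named beside their count, and the list genes given with values were picked from these after their values were seen, as was Vim. The entry closest in pattern to Map2 (Pearson r = 0.996) stands under the date 6-Mar in place of a gene name and was not matched to a gene here.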

Additional observations from a re-analysis of the deposited data

How the results depend on the processing

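The count of the 10 genes called stayed at 0 in all 5 comparisons under every alternative except one. It moved for long tails minus total in knockdown neurons when knockdown long-tail replicate 1 was left out. That fit leaves 1 library in the group, the one that stood apart, and calls over the whole table rose in it too. Dcx falls below a filter of 20 TPM and has no value there. Of 585 differences of single genes under alternatives other than leaving out 1 library, 561 kept their sign. With 1 library left out, whether or not it was part of the comparison, 361 of 400 kept it. Many of these signs could not turn. Other filters, no trend, compared groups only and the replicate blocks leave the difference itself unchanged. So does leaving out a library that is not part of the comparison. The counts therefore overstate how stable the signs were.

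Signs turned as follows. With the length trend removed, knockdown minus scrambled was 0.02 for Map1a in total RNA and 0.03 for Ina, 0.13 for Map1a and 0.26 for Map1b in long tails. Long minus total became 0.07 for Nefl, 0.13 for Nefm and 0.15 for Map6 in scrambled neurons, and 0.09 for Nefl, 0.07 for Nefm, 0.02 for Nefh, 0.06 for Map1a, 0.02 for Mapt and 0.24 for Map6 in knockdown neurons. The interaction became 0.03 for Nefh, 0.12 for Map1a, 0.15 for Mapt and 0.08 for Map6. With quantile normalization Map1a was at 0.03 in total RNA, Nefm at 0.03 for long minus total in scrambled neurons, and the interaction at −0.12 for Nefl and 0.01 for Nefh. Rescaled without Rn45s, Map1a was at 0.03 in total RNA and the interaction of Nefl at −0.05. With a pseudocount of 5 the interaction of Mapt was 0.00.

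With 1 library left out, knockdown minus scrambled in total RNA ranged from −0.16 to 0.19 for Ina, −0.07 to 0.04 for Map1a and −0.29 to 0.12 for Map2. In long tails it ranged from −0.32 to 0.58 for Dcx, −0.23 to 0.13 for Ina, −0.77 to 0.08 for Map1a, −1.29 to 0.86 for Map1b and −0.04 to 0.97 for Nefm, and the summed TPM difference of the microtubule-associated proteins from −277 to 140. Long minus total ranged from −0.41 to 0.03 (Nefl) and −0.47 to 0.23 (Nefm) in scrambled and from −0.38 to 0.05 and −0.69 to 0.32 in knockdown neurons. The interaction ranged from −0.24 to 0.12 for Ina, −0.76 to 0.10 for Map1a, −1.95 to 0.20 for Map1b, −0.16 to 0.08 for Map6, −0.18 to 0.17 for Mapt, −0.16 to 0.11 for Nefh, −0.20 to 0.24 for Nefl and −0.57 to 0.44 for Nefm. Without a turn of sign, these values moved by over 1.5 times: Nefm 0.32 to 0.75, Mapt −0.37 to −0.18 and Map6 0.23 to 0.47 for knockdown in total RNA, and Nefl 0.09 to 0.52, Map2 −0.94 to −0.36 and Mapt −0.45 to −0.10 in long tails. For long minus total they were Nefh −0.45 to −0.19 and Ina −0.54 to −0.21 in scrambled neurons, and Nefh −0.48 to −0.21, Ina −0.62 to −0.26, Map1a −1.36 to −0.51, Map1b −2.54 to −0.39, Mapt −0.70 to −0.35, Dcx −1.75 to −0.84 and Map6 −0.39 to −0.15 in knockdown neurons. For the interaction they were Map2 −0.86 to −0.27 and Dcx −0.94 to −0.03. The cause of these moves was not tested.

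Over all genes the count of calls, 0 as reported, was 43, 54, 33 and 56 without a filter, 6, 5, 2 and 1 at a mean of 5 TPM, 7, 13, 1 and 1 at 20 TPM and 50, 83, 87 and 97 with compared groups only, in the order knockdown total, knockdown long, scrambled and knockdown fractions. With the length trend removed it was 39 and 27 in the 2 knockdown comparisons, with quantile normalization 4 and 1, and without Rn45s 1 and 1. With 1 library left out it reached 1, 2, 57 and 2125. The interaction stayed at 0. With the replicate block it was 0 in each comparison, and so it was with crossed numbers for the knockdown long-tail pair; replicate differences correlated across genes between groups at −0.116 (knockdown total with knockdown long) to 0.759, a hint from the data only.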
